A study of Mus musculus with 24 samples.

Results

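The same clock hours were compared on 2 successive days in a mouse hepatocyte line, MMH-D3, whose circadian clocks had been aligned by a serum shock. Arrays taken at 12, 14, 16 and 18 h after the shock (day 1) were each paired with the array taken exactly 24 h later, at 36, 38, 40 and 42 h (day 2). These 8 arrays are part of a course of 24 arrays that ran from 12 to 58 h in steps of 2 h, with 1 array per time and no replicates. Per the labels, the cells were grown to confluence, differentiated for 14 days in growth medium with 2% DMSO, and then shocked, so both days share the line, the differentiation and the shock, and no array is from cells that were not shocked. The members are the 18336 of 45101 probe sets that are not Affymetrix controls and reached a log2 value of 5 on at least 4 of the 8 arrays. They give 9739 genes of 18193 with a symbol on the array, each gene being read from its probe set of highest mean over the 8 arrays.

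A serum shock is a brief exposure of cultured cells to concentrated serum. It induces immediate early genes and Per transcription, sets the clocks of the cells to a common phase, and also acts as a growth stimulus. In the circadian clock, BMAL1 and CLOCK activate the Per, Cry and Rev-erb genes, whose products then repress that activation, and the loop closes once a day. Arrays 24 h apart are therefore at the same nominal clock phase. What differs between them is everything else that changes in a day of culture, and with 1 course the day, the time since the shock and the age of the culture cannot be told apart.

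The 4 arrays of a day are different clock hours and not replicates of one condition, so each SD given here holds the change over 6 h of the clock as well as the spread between samples. The labels do not say whether the samples came from separate cultures. The test of the day difference is limma's moderated test with the clock hour as a block, adjusted by Benjamini-Hochberg over the 18336 probe sets. Its error comes from the spread between the 4 pairs of 1 course, so its p-values do not measure variation between courses. A gene is said to rise or fall where its adjusted p is under 0.05 and its day 2 level is higher or lower. Changes are day 2 minus day 1 in log2 units, and errors are standard errors of that fit unless an SD is named. The medians of the 8 arrays over the kept probe sets lay between 8.99 at 40 h and 9.15 at 42 h, and the median correlation of an array with the other 7 lay between 0.972 and 0.982. The array at 40 h was the dimmest, and the median difference over probe sets was -0.098 for the pair of 16 and 40 h and 0.0987 for the pair of 18 and 42 h. It was -0.0053 and -0.0079 in the other 2 pairs.

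Defining markers were read first. Of 7 measured hepatocyte markers 0 rose and 1 fell, the fibrinogen chain Fgb, where 6.81% of all genes rose and 3.71% fell. Alb (albumin) was 16.09 on day 1 and 16.22 on day 2 with an adjusted p of 0.403, and Hnf4a, a master transcription factor of the hepatocyte, was 12.11 and 12.13. Also not called were Apoa1, Apob, Ttr and Rbp4, with changes of -0.66, -0.53, -0.15 and -0.0072. Other markers of mature liver were below the filter: Cps1 (urea cycle), Tat and Cyp2e1 lay at the lowest value of the table, 2.17, on both days, which is only an upper bound. Markers of bile duct and progenitor epithelium were abundant, with Krt19 at 15.53 and 15.61, Krt7 rising by 0.55 ± 0.13 and Epcam falling by 0.90. Krt7 was called in 1 of the 4 fits that leave out a pair, and Epcam in all 4. Of 9 fibroblast, 5 endothelial and 4 lymphocyte markers on the array, 0 were measured. Of 7 macrophage markers 3 were measured and Cd68, a lysosomal membrane protein, rose to a mean of 7.06 from one below the minimum of 5, while Ptprc, Adgre1, Marco and Lyz2 had means between 2.17 and 2.25. The summed level of the macrophage list ranged from 14.74 to 14.85 on day 1 and from 14.68 to 15.13 on day 2, most of it from Cd14. Its part in the differences below was not tested.

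The second day differed from the first in 1024 of 9739 genes, which is 10.5% of those tested. Of these, 663 genes (6.81%) rose and 361 (3.71%) fell. At the level of probe sets, 1843 (10.1%) differed, of which 1058 (5.77%) rose and 785 (4.28%) fell. The median change over all genes was 0.0008 and the median standard error 0.112. Most differences were small, since 718 of the called genes changed by less than 2-fold and the median size of a called change was 0.69. Among those of at least 2-fold, 245 genes (2.52%) rose and 61 (0.626%) fell. Of the genes that rose, 58 had a day 1 mean below 5, and of those that fell, 8 had such a mean on day 2. Such a gene is dim on that day and is named below with its levels and without the size of its change. The values of the days did not overlap for 1207 genes (12.4%) that were higher on day 2 and 882 (9.06%) that were lower.

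**Figure D1:**
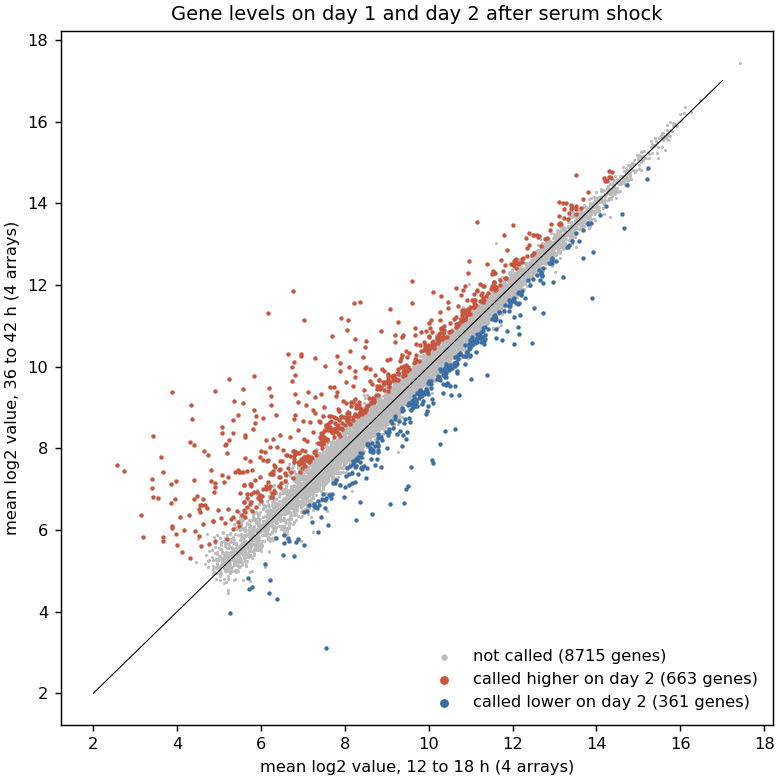
Mean log2 value of each of the 9739 genes on day 1 (x axis, arrays at 12 to 18 h) against day 2 (y axis, arrays at 36 to 42 h), with the diagonal of equal levels. Red points are the 663 genes that rose and blue points the 361 that fell. The red points farthest from the diagonal lie at low day 1 levels.

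The numbers of calls changed with the pairs included. Without the pair of 12 and 36 h, 362 genes rose and 168 fell, and without the pair of 14 and 38 h the counts were 291 and 85. Without the pair of 16 and 40 h they were 414 and 105, and without the pair of 18 and 42 h they increased to 705 and 653. Of the 130 called genes named by the rule of the methods, 69 stayed called whichever pair was left out, 5 were called in none of these 4 fits, and 0 changed direction. In the paragraphs below, a gene said to hold is one of the 69.

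Genes of mitosis made up most of the largest rises. Before mitosis a cell makes the cyclins and kinases that drive entry into division, the motors and scaffolds that build the spindle, and the ubiquitin ligase that ends it, and their mRNAs accumulate late in the cell cycle and are low in resting cells. Of 30 genes of this list 28 were measured, and 28 rose, against 6.81% of all genes. The count is not support by itself, because 6 of the 28 had a day 1 mean below 5 and some reached the filter through day 2 only. Of the 16 with a log2 value of 5 or more on all 8 arrays, 16 rose, with a median change of 3.23. In these bulk samples, more dividing cells and more of this RNA per cell cannot be told apart. Cdc25c was below the filter and Ccnb1 had no probe set with 1 symbol.

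Ccnb2, a cyclin B that activates CDK1 at entry into mitosis, was at 5.68, 5.19, 6.94 and 6.85 at 12, 14, 16 and 18 h and at 11.40, 11.25, 11.18 and 11.41 at 36, 38, 40 and 42 h. It rose by 5.14 ± 0.30, or 35.3-fold, with an adjusted p of 0.000233. Day 1 climbed between 14 and 16 h, while the 4 arrays of day 2 were close together. Ube2c, the ubiquitin-conjugating enzyme of the anaphase-promoting complex, stood at 6.67, 5.49, 7.33 and 7.59 on day 1 and at 11.80, 11.73, 12.15 and 11.72 on day 2, a rise of 5.08 ± 0.29 (adjusted p = 0.000233). The level at 14 h was the lowest of the 8 for both genes.

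Spindle genes had the same shape. Kif20a, a kinesin of the late spindle, read 4.29, 4.09, 6.02 and 6.49 on day 1 and 9.92, 9.77, 9.42 and 9.63 on day 2. It rose by 4.46 ± 0.46 (adjusted p = 0.00157). Nusap1, a microtubule-binding protein of the spindle, read 6.44, 5.92, 7.69 and 8.09 and then 11.30, 11.15, 11.02 and 11.06. It rose by 4.10 ± 0.37 (adjusted p = 0.00105). In both genes the earlier hours of day 1 were the lower ones and day 2 was nearly flat. Hmmr, a hyaluronan receptor that also sits on the spindle, rose by 3.88 ± 0.23, Tpx2, the activator of Aurora A, by 3.80 ± 0.35 and Kif2c, a microtubule-depolymerizing kinesin, by 3.45 ± 0.32. Mki67, which coats mitotic chromosomes and encodes the Ki-67 antigen, went from 5.14, 5.63, 7.34 and 8.51 to 10.35, 10.55, 10.21 and 10.16, a rise of 3.67 ± 0.55 (adjusted p = 0.00787). The pair differences of Mki67 shrank with the hour as day 1 itself climbed.

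Other genes of division were among the 12 largest rises without being on the list. Cdca3, a trigger of mitotic entry, rose by 3.92 ± 0.28 and Depdc1a by 3.52 ± 0.52. Cep55, needed for the final abscission of daughter cells, rose by 3.37 ± 0.39, and Foxm1, a transcription factor of late cell cycle genes, by 3.37 ± 0.46. Dim on day 1 were Cenpa, the histone that marks centromeres, Aspm, a protein of the spindle poles, Cdkn3, a phosphatase of CDKs, and Aurka, the kinase Aurora A. Cenpa lay between 3.64 and 4.13 on day 1 and between 9.09 and 9.65 on day 2, and Aspm between 2.20 and 3.25 and then between 7.03 and 7.88. Cdkn3 went from 3.03 to 3.84 on day 1 to between 8.15 and 8.58. Aurka, at 4.04, 2.99, 4.80 and 5.44 on day 1, was at 9.12, 8.81, 8.97 and 9.32 on day 2. Cenpe, a kinesin of the kinetochore, and Plk1, the Polo kinase, had day 1 means of 2.72 and 4.91 and day 2 means of 7.45 and 9.40. The ranges of the days were far apart for each of these genes, and each of the genes named in the last 3 paragraphs held. The smallest change among the 22 mitotic genes with both means at 5 or above was that of Mad2l1, a spindle checkpoint protein, at 1.81.

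**Figure D2:**
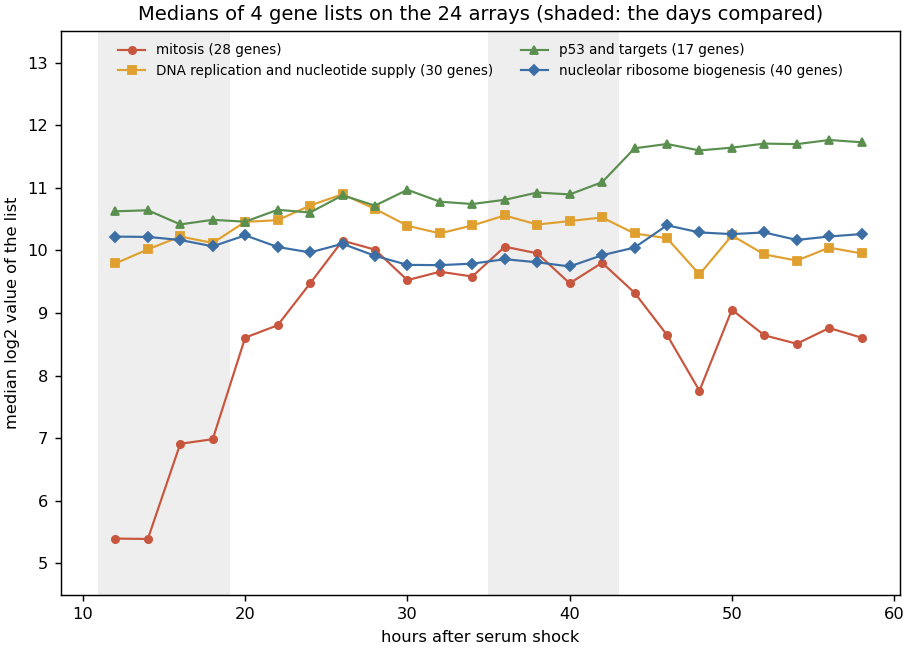
Median log2 value (y axis) of 4 gene lists on each of the 24 arrays (x axis, hours after serum shock); the days compared are shaded. The mitosis list climbs from 5.40 at 12 h to 10.16 at 26 h, and stands between 9.47 and 10.06 from 36 to 42 h.

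The arrays between the days show when the mitotic levels were reached. The median of the 28 genes of the mitosis list was 5.40, 5.39, 6.91 and 6.98 at the 4 hours of day 1. It was 8.61 at 20 h, 9.47 at 24 h and 10.16 at 26 h, and then stayed between 9.52 and 10.06 until 38 h. On day 2 it was 10.06, 9.95, 9.47 and 9.80. The day 2 level had therefore been reached within the first 26 h, before the second day began. After the second day the list stood lower, with a median of gene means of 8.70 at 44 to 50 h and 8.61 at 52 to 58 h, still above the 6.20 of 12 to 18 h. Over all 663 genes that rose, the median of gene means was 8.07 on day 1, 8.77 at 20 to 26 h, 8.95 at 28 to 34 h, 9.21 on day 2, and 8.88 and 8.91 in the following windows. For the 361 genes that fell it was 10.08, 9.69, 9.59, 9.40, 9.55 and 9.42. The values of the 2 days chose these genes.

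The promoters of mitotic genes were read because this set moved together. Many genes of the late cell cycle are known to be repressed in resting cells through a CHR element, recognized by the DREAM complex, and are activated with the help of NF-Y bound to CCAAT boxes. A window of 150 bases, 120 before the RefSeq start and 30 from it (build GRCm38.p6), was searched on both strands for TTTGAA or TTCGAA (CHR) and for CCAAT. On the other strand a CCAAT box reads ATTGG and a CHR reads TTCAAA or TTCGAA. The motifs share no bases with each other in the windows printed. A CHR was present in 15 of the 24 mitotic genes with a promoter entry, or 62.5%, against 9.07% of 32851 promoters and 7.09% of the 8001 measured genes with an entry. A CCAAT box was in 18 of the 24 (75%), against 24% and 31.4%, and both motifs were in 13 of the 24 (54.2%), against 2.25% of all promoters. Genes of DNA replication, with smaller rises, held a CHR in 2 of 26 (7.69%) and CCAAT in 13 of 26 (50%). The E-box, a motif of clock genes, was searched for as well. It was in 1 of the 24 mitotic genes (4.17%) and 2 of the 26 replication genes (7.69%). It was in 4.47% of all promoters and 8% of the measured genes. A match of any motif describes its letters only.

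The windows of 4 of the 5 genes of the mitosis list with the largest rise from a day 1 mean of at least 5 are shown. Nusap1 holds neither motif. They are 5′ to 3′ on the strand of the gene, with CHR and CCAAT matches on either strand in capitals. Ccnb2 is at chr9:70421525-70421674 on the minus strand, Ube2c at chr2:164769809-164769958 on the plus strand, Hmmr at chr11:40733408-40733557 on the minus strand and Nusap1 at chr2:119618178-119618327 on the plus strand.
Ccnb2: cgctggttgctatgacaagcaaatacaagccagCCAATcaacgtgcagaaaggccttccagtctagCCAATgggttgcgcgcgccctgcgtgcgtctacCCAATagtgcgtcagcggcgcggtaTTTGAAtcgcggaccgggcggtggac
Ube2c: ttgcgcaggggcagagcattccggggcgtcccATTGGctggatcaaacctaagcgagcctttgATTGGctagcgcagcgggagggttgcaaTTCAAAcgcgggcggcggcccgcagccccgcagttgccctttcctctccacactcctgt
Hmmr: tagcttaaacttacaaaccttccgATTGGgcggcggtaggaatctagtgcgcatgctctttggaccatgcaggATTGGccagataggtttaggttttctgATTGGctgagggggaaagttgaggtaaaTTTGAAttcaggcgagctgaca
Nusap1: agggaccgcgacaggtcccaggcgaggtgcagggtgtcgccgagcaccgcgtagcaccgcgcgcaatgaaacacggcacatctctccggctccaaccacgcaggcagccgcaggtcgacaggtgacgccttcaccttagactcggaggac
Ccnb2 and Hmmr each hold 3 CCAAT boxes upstream of 1 CHR, and Ube2c holds 2 CCAAT boxes and 1 CHR. The boxes of Ccnb2 start 33 bases apart.

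Some genes that copy DNA rose as well. These are the enzymes of S phase, which precedes mitosis: the helicase and its loaders, polymerases, and the makers of nucleotides. Of 30 measured members 12 rose and 1 fell, where 6.81% of all genes rose and 3.71% fell, with a median change of 0.43 against 0.0008 over all genes. Rrm2, the regulated subunit of ribonucleotide reductase, read 11.10, 11.46, 12.21 and 12.36 on day 1 and 13.45, 13.29, 13.07 and 13.02 on day 2, a rise of 1.43 ± 0.26 (adjusted p = 0.0172). Day 1 climbed and day 2 declined over the 6 h, and the days did not overlap. Its partner Rrm1 went from 10.18, 10.35, 10.67 and 10.68 to 11.53, 11.58, 11.61 and 11.65, a rise of 1.12 ± 0.10 (adjusted p = 0.000802). Cdc45, part of the replicative helicase, rose by 1.36 ± 0.18 from a mean of 5.76. The other 9 that rose were Tk1, Pola1, Cdt1, Prim1, Rfc5, Lig1, Dut, Fen1 and Pcna. Ung, which removes uracil from DNA, fell by 0.88. Rrm1 and Cdc45 held, while the count of 12 dropped to 6 without the pair of 12 and 36 h and to 4 without that of 14 and 38 h.

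Regulators of the G1 phase, in which a cell commits to division or rests, were read next. Of 18 measured, 5 rose and 0 fell, against 6.81% and 3.71% of all genes, with a median change of 0.29. Cdkn2c, an inhibitor of CDK4 and CDK6, went from 7.38, 7.07, 7.33 and 7.19 to 8.55, 8.08, 8.46 and 8.52, a rise of 1.16 ± 0.11 (adjusted p = 0.00129). Rbl1, a relative of the retinoblastoma protein, rose by 0.75 ± 0.10, and Ccnd2, a cyclin D that promotes passage through G1, by 0.56 ± 0.08. The remaining risers were Ccnd1, another cyclin D, and Cdkn1a, the CDK inhibitor p21. Activators and inhibitors of CDKs were thus both among the genes that rose. Cdkn2c and Rbl1 held, and Ccnd2 lost its call without the pair of 14 and 38 h, at the same direction.

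Of 17 measured genes of the list of p53 and its targets, 9 rose and 0 fell, against 6.81% and 3.71% of all genes. The median change of the list was 0.50. Trp53, the gene of p53 itself, was not measured, nor were Bax, Tnfrsf10b and Gdf15. p53 is a transcription factor that responds to DNA damage and other stress by inducing genes that halt division. Mdm2, the ubiquitin ligase that degrades p53 and is itself induced by it, read 11.47, 11.22, 11.42 and 11.12 on day 1 and 11.90, 12.00, 12.01 and 11.95 on day 2. It rose by 0.66 ± 0.09 (adjusted p = 0.00494), and the days did not overlap. Btg2, an antiproliferative target, went from 9.64, 9.49, 9.62 and 9.36 to 10.24, 10.24, 10.53 and 10.27, a rise of 0.79 ± 0.09 (adjusted p = 0.00275). Trp53inp1 rose by 0.66 ± 0.07, Zmat3, an RNA-binding target, by 0.65 ± 0.08 and Ccng1 (cyclin G1) by 0.58 ± 0.09. Sesn2, which restrains mTOR, rose by 0.64 ± 0.14. Cdkn1a read 13.43, 13.42, 13.26 and 13.24 and then 13.68, 13.68, 13.74 and 14.00, a rise of 0.43 ± 0.10 (adjusted p = 0.0326). It was bright on both days, and all 4 arrays of day 2 were above those of day 1.

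Btg2, Mdm2, Trp53inp1, Zmat3 and Ccng1 held. Sesn2 and Cdkn1a were called in 1 of the 4 fits that leave out a pair. The count of 9 was 5 without the pair of 12 and 36 h and 5 without that of 14 and 38 h. The p53 list's median of gene means stood at 10.51 on day 1 and 10.93 on day 2.

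Histone genes moved in both directions, with 1 up and 2 down of 6 measured, where 6.81% of all genes rose and 3.71% fell. H2ax, the variant phosphorylated at DNA breaks, rose by 1.14 ± 0.13, from a mean of 9.01 to 10.16 (adjusted p = 0.00286). H1f2, a linker histone, fell by 1.07, from 12.51 to 11.43 (adjusted p = 0.000775), and H2aw by 0.50. H2ax and H1f2 held.

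**Figure D3:**
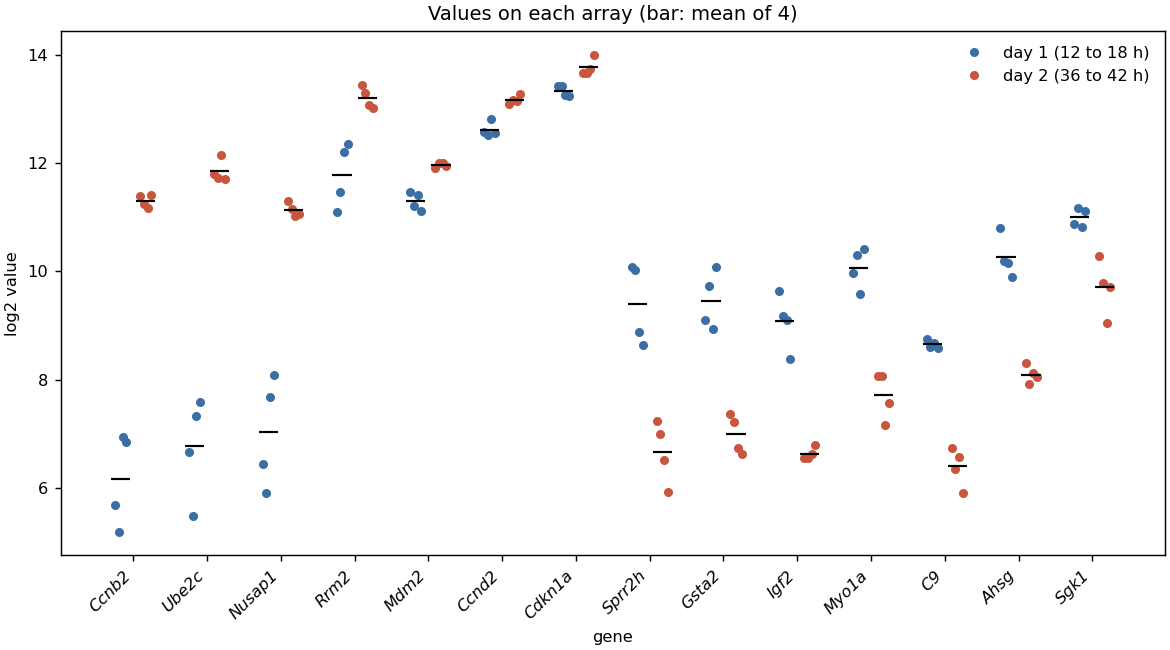
Log2 value (y axis) of 14 genes (x axis) on each of the 8 arrays, day 1 in blue and day 2 in red, from left to right in order of hour, with a bar at the mean of 4. The days of each gene do not overlap; Ccnb2 and Ube2c move most, and Cdkn1a moves by 0.43.

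At matched clock hours, of 13 measured genes of the core clock 1 rose and 0 fell, against 6.81% and 3.71% of all genes, and the median change was -0.01. A missing call does not show equal levels, since errors ran up to 0.33. Bhlhe40 (DEC1), a repressor of BMAL1 and CLOCK, read 11.87, 12.11, 12.27 and 12.37 on day 1 and 12.18, 12.45, 12.66 and 12.82 on day 2. It rose by 0.37 ± 0.07 (adjusted p = 0.0143), and each day 2 array was above its partner although the ranges of the days overlap. Both days climbed with the hour.

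The activators came first in the loop. Arntl (BMAL1) fell through the window on each day, from 8.58, 7.997, 7.16 and 6.54 to 8.40, 7.46, 6.92 and 6.86, a difference of -0.15 ± 0.16. Clock, its partner, was at 10.51, 10.29, 10.03 and 10.19 and then at 10.50, 10.47, 9.74 and 9.998, a difference of -0.08 ± 0.10. The direction within the day was the same for Arntl on both days. The repressors of Arntl transcription, the REV-ERB receptors, ended the window higher than they began it on both days, but did not climb at every step. Nr1d1 (REV-ERB alpha) was at 7.40, 8.15, 8.26 and 7.92 on day 1 and at 7.66, 8.32, 8.24 and 8.83 on day 2, a difference of 0.33 ± 0.16 (adjusted p = 0.255). Nr1d2 (REV-ERB beta) was at 11.24, 11.73, 12.08 and 12.14 and then 11.17, 11.77, 11.97 and 11.74, a difference of -0.13 ± 0.09. Rora, the activator that competes with REV-ERB, differed by 0.14 ± 0.09 and had 2 other probe sets of opposite sign.

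Per and Cry encode the repressors of BMAL1 and CLOCK. Per2 stood at 6.06, 5.24, 7.13 and 7.69 on day 1 and at 5.93, 6.84, 6.65 and 7.48 on day 2, a difference of 0.20 ± 0.33. The 14 h array alone was low, and without the pair of 14 and 38 h the difference was -0.27. Per1 differed by -0.05 ± 0.17 and was 0.13 without the pair of 16 and 40 h. Cry1 was at 8.02, 7.74, 7.01 and 6.75 and then 7.54, 6.67, 6.88 and 7.44, a difference of -0.25 ± 0.26, so it fell steadily on day 1 and turned up after 38 h on day 2. Cry2 differed by 0.04 ± 0.14. The casein kinases that mark PER for degradation, Csnk1d and Csnk1e, differed by -0.25 ± 0.10 and 0.21 ± 0.13, but 3 of the 4 other probe sets of Csnk1d and 1 of the 2 of Csnk1e had the opposite sign. Nfil3 (E4BP4), a repressor at D-box elements, differed by -0.01 ± 0.20.

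**Figure D4:**
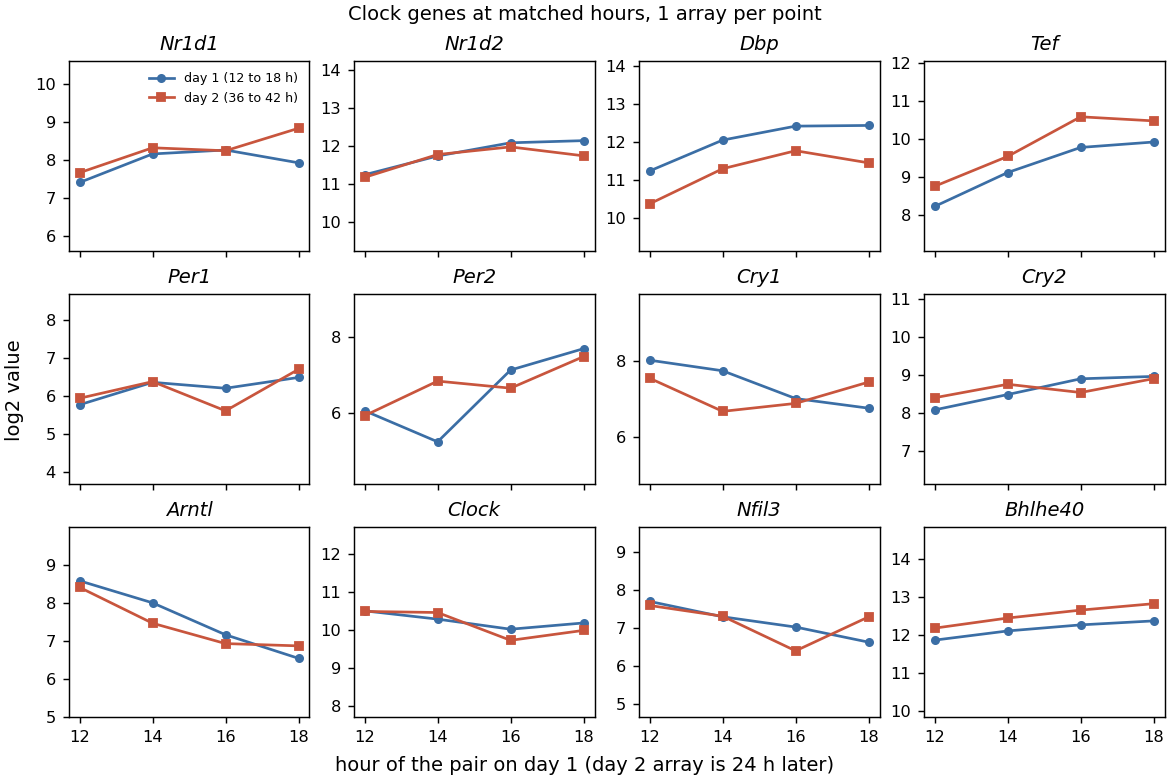
Log2 value (y axis, 5 log2 units in each panel) of 12 clock genes at the 4 clock hours (x axis, hour of the day 1 array), day 1 in blue and day 2 in red, 1 array per point. Dbp lies lower and Tef and Bhlhe40 higher at every hour of day 2, while the other 9 genes were not called.

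Among 15 measured clock outputs 3 rose and 2 fell, against 6.81% and 3.71% of all genes. The PAR bZIP factors, which carry the clock signal to D-box genes, parted. Dbp was at 11.23, 12.04, 12.41 and 12.42 on day 1 and at 10.36, 11.28, 11.76 and 11.44 on day 2, a fall of 0.81 (SE 0.08, adjusted p = 0.00148), or 1.76-fold. Tef was at 8.22, 9.11, 9.77 and 9.91 and then 8.75, 9.54, 10.58 and 10.47, a rise of 0.58 ± 0.10 (adjusted p = 0.012). Both factors climbed with the hour on day 1. On day 2 they climbed up to 40 h and were lower at 42 h than at 40 h. In all 4 pairs Dbp was lower and Tef higher on day 2. Another probe set of each gene was called in the same direction. Hlf, the remaining PAR bZIP factor, was not measured. Lonrf3 rose by 0.81 ± 0.19 from a mean of 5.56, and Cirbp, a cold-inducible RNA-binding protein, fell by 0.50. Dbp held, Tef lost its call without the pair of 14 and 38 h or that of 16 and 40 h, and Bhlhe40, Lonrf3, Cirbp and Cdkn1a were called in 1 of the 4 fits.

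The outputs that were not called had differences of at most 0.45 in size. The largest, that of Hspa1b, exceeded the change of Cdkn1a, which was called. Wee1, the kinase that delays mitosis, differed by 0.31 ± 0.14 and Hspa1b by 0.45 ± 0.12 (adjusted p = 0.0542). Tfrc, the transferrin receptor, differed by 0.16 ± 0.07, and Nampt, of NAD synthesis, by 0.12 ± 0.09. Fkbp5 and Tsc22d3, targets of the glucocorticoid receptor, differed by -0.12 ± 0.13 and 0.00 ± 0.10. Pnpla2, the triglyceride lipase ATGL, differed by -0.05 ± 0.09, Tspan4 by 0.02 ± 0.12 and Leo1 by 0.00 ± 0.11. Apart from Hspa1b, the largest of these differences was that of Wee1.

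The largest falls included genes of secreted proteins and of epithelia. Sprr2h, of the small proline-rich proteins of epithelia, read 10.09, 10.02, 8.88 and 8.64 on day 1 and 7.23, 6.99, 6.51 and 5.93 on day 2. It fell by 2.74 (SE 0.13, adjusted p = 0.000158), and it declined with the hour on both days. Igf2, a fetal growth factor of liver, read 9.64, 9.18, 9.10 and 8.39 and then 6.56, 6.56, 6.63 and 6.79, a fall of 2.44 (SE 0.22, adjusted p = 0.00111). Its day 2 level was flat. S100a9, a calcium-binding protein best known from neutrophils, went from 9.50, 9.98, 9.09 and 9.44 to 6.88, 7.47, 6.98 and 6.98, a fall of 2.42 (SE 0.12, adjusted p = 0.000158). Bcl2l15, of the BCL2 family, fell by 2.47 (SE 0.15) and Syt7, a calcium sensor of membrane fusion, by 2.01 (SE 0.18). All 5 genes held.

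Some of the largest falls were of genes best known from the absorptive epithelium of the intestine, a grouping made after the values were seen. Myo1a, the brush border myosin, read 9.98, 10.30, 9.59 and 10.42 on day 1 and 8.07, 8.07, 7.16 and 7.57 on day 2, a fall of 2.35 (SE 0.15, adjusted p = 0.000346). Mptx1, a mucosal pentraxin, read 13.68, 14.16, 13.58 and 14.15 and then 12.26, 11.93, 11.48 and 11.07, a fall of 2.20 (SE 0.23, adjusted p = 0.00162). Mptx1 was bright on day 1, and it declined with every array of day 2. Tm4sf20 fell by 2.03 and 2210407C18Rik by 2.16. Abcg5 and Aqp8 were dim on day 2 and are not placed in this grouping. Abcg5, a sterol exporter, had a mean of 6.38 and then 4.30, and Aqp8, a water channel, 6.21 and then 4.77.

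Others of the intestinal grouping were picked after their values were seen, so no count is given for them. Fabp2, the intestinal fatty acid binding protein, fell by 1.87, Enpep, a brush border peptidase, by 1.68, Ddc by 1.49, Muc13 by 1.15 and Rbp2, a retinol-binding protein of enterocytes, by 1.10. Vil1 (villin), Cdh17, Krt20 and Cdx2, the homeobox factor of intestine, were not called, with changes of -0.46, -0.20, -0.11 and 0.00. Apoa4, read with the apolipoproteins below, differed by 1.06 in the other direction and was not called. Myo1a, Mptx1, Tm4sf20, 2210407C18Rik, Abcg5 and Aqp8 held. The dim gene of largest fall was Prg4 (lubricin), at 8.27, 7.77, 7.24 and 6.94 on day 1 and between 2.98 and 3.24 on day 2. Dancr, a long noncoding RNA, went from 7.14, 6.81, 5.76 and 5.03 to 4.45, 4.48, 3.88 and 4.97 and was called in 1 of 4 fits without a pair.

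Plasma proteins, the main secreted product of hepatocytes, moved unevenly. Of 13 acute phase genes measured, 0 rose and 3 fell, against 6.81% and 3.71% of all genes, with a median change of -0.23. These were the fibrinogen chains Fga, by 0.91 (SE 0.16), and Fgb, by 0.80 (SE 0.15), and hemopexin, Hpx, by 0.68 (SE 0.09). Fgb was at 11.45, 10.51, 10.88 and 10.61 on day 1 and at 10.08, 10.06, 10.24 and 9.85 on day 2, so the days did not overlap. Hpx held, Fga lost its call without the pair of 12 and 36 h and Fgb without that of 16 and 40 h.

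Among 11 plasma carriers and protease inhibitors 1 rose and 2 fell, against 6.81% and 3.71% of all genes. Ahsg (fetuin A), a carrier of calcium phosphate, read 10.81, 10.19, 10.15 and 9.89 on day 1 and 8.31, 7.92, 8.12 and 8.04 on day 2, a fall of 2.17 (SE 0.13, adjusted p = 0.000233). Ambp, the precursor of bikunin, fell by 0.29, and Proc, the anticoagulant protein C, rose by 0.85 ± 0.15 from a mean of 5.94. Of 10 complement genes 2 rose and 1 fell, beside the same shares. The terminal component C9 read 8.74, 8.60, 8.68 and 8.58 and then 6.74, 6.36, 6.58 and 5.91, a fall of 2.26 (SE 0.14, adjusted p = 0.000299). The proteases of the first component went the other way, with C1s1 rising by 1.77 ± 0.26 and C1ra by 0.88 ± 0.13. C9, Ahsg and C1ra held, C1s1 lost its call without the pair of 16 and 40 h, and Ambp and Proc in 3 and 2 of the 4 fits.

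Of 8 apolipoprotein genes measured 0 were called, and their changes ran from -1.23 to 1.06. The smallest p was that of Apoa4, which was at 10.07, 11.41, 10.49 and 11.88 on day 1 and between 11.79 and 12.17 on day 2, a difference of 1.06 ± 0.31 (adjusted p = 0.0779). Liver transcription factors had 0 called of 13, led by Onecut2 at 0.48 ± 0.14 (adjusted p = 0.0764). In the insulin-like growth factor axis 2 rose and 2 fell of 9 measured, against 6.81% and 3.71% of all genes. Beside Igf2, the binding protein Igfbp3 fell by 0.68 (SE 0.10) and Igfbp7 rose by 0.48 ± 0.06, although the other probe set of Igfbp7 gave -0.11. Igfbp3 and Igfbp7 held.

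Detoxifying enzymes had calls in both directions, where 6.81% of all genes rose and 3.71% fell. Of 19 alcohol, aldehyde and retinol dehydrogenases 1 rose and 4 fell, with a median change of -0.20, and 12 were lower in every pair, against 16% of all genes. Aldh1a1, a retinaldehyde dehydrogenase, was at 14.45, 14.73, 14.47 and 14.76 on day 1 and at 13.79, 13.76, 13.75 and 13.67 on day 2, a fall of 0.86 (SE 0.09, adjusted p = 0.00146). Its close paralog Aldh1a7, whose probes may share targets with it, fell by 1.42 (SE 0.10). Aldh3a1, which oxidizes aromatic aldehydes, read 9.32, 9.005, 9.76 and 9.41 and then 10.70, 10.60, 10.79 and 11.01, a rise of 1.40 ± 0.12 (adjusted p = 0.000695). The 3 genes held, and their days did not overlap.

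Of 16 glutathione S-transferases 3 rose and 1 fell, against 6.81% and 3.71% of all genes. Gsta2, of the alpha class, read 9.09, 9.73, 8.94 and 10.09 on day 1 and 7.38, 7.22, 6.73 and 6.63 on day 2, a fall of 2.47 (SE 0.25, adjusted p = 0.0016). The mu class genes Gstm2 and Gstm7 rose by 0.98 ± 0.09 and 0.91 ± 0.16, and the third riser was Gstt1, of the theta class. Gstm7 was called in 1 of the 4 fits without a pair. In xenobiotic metabolism 2 rose and 2 fell of 18. The drug efflux pump Abcb1a fell by 1.37 (SE 0.28) and Ugt2b5, a glucuronidating enzyme, by 0.77 (SE 0.13), while Cyp2s1 rose by 0.81 ± 0.09. Among 21 NRF2 targets and thiol enzymes 1 rose (4.8%) and 2 fell (9.5%). Ces2e, a carboxylesterase, rose by 1.91 ± 0.16 (adjusted p = 0.000707), and Sod2, the mitochondrial superoxide dismutase, and Pgd, of the pentose phosphate pathway, fell by 0.45 and 0.35. Gsta2, Gstm2, Cyp2s1 and Ces2e held.

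Some genes induced by low oxygen and some of sugar breakdown rose. Of 16 hypoxia targets 4 rose and 0 fell, against 6.81% and 3.71% of all genes, with a median change of 0.14. Adm, the vasodilator peptide adrenomedullin, rose by 0.78 ± 0.18, Bnip3, a mitophagy receptor, by 0.56 ± 0.10 and Ero1a, an oxidase of the endoplasmic reticulum, by 0.54 ± 0.11. The fourth was Bhlhe40, which both lists hold. Ero1a read 10.84, 10.91, 11.09 and 11.55 on day 1 and 11.57, 11.54, 11.78 and 11.66 on day 2, so the array at 18 h was already near the day 2 level. Of 16 glycolytic genes 3 rose and 0 fell, beside the same shares, with a median of 0.14. Eno2, a neuronal enolase, read 5.47, 5.74, 6.04 and 6.15 and then 7.46, 6.96, 7.0 and 7.49, a rise of 1.38 ± 0.19 (adjusted p = 0.00503). Aldoc rose by 0.78 ± 0.16 and Pfkp by 0.36 ± 0.08. Eno2 held, and the other 6 named genes of these lists were called in 1 of the 4 fits.

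Lipid genes were read in 5 lists, beside a background of 6.81% of all genes that rose and 3.71% that fell. Of 17 genes of cholesterol synthesis 0 were called, the smallest p being that of Lss, at -0.39 ± 0.13 (adjusted p = 0.106). In sterol sensing and LDL uptake 1 of 11 rose, Npc2, the soluble cholesterol carrier of lysosomes, by 0.55 ± 0.06. In fatty acid synthesis 1 of 13 rose, the desaturase Fads1, by 0.82 ± 0.13. Of 14 genes of triglycerides and lipid droplets 2 fell. Dgat1, which makes triglyceride, read 10.06, 10.13, 10.09 and 10.03 on day 1 and 9.28, 9.25, 9.06 and 9.27 on day 2, a fall of 0.86 (SE 0.09, adjusted p = 0.00173). Cidec, a protein that fuses lipid droplets, fell by 1.43 (SE 0.26). Of 18 genes of fatty acid oxidation 1 fell, the liver transcription factor Creb3l3, by 0.91 (SE 0.12). Npc2, Dgat1 and Creb3l3 held.

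Genes of ribosome assembly in the nucleolus had small differences, mostly downward. Of 40, 0 rose and 4 fell, against 6.81% and 3.71% of all genes, with a median change of -0.24 against 0.0008 over all genes. Of the 40, 16 were lower in every pair, against 16% of all genes. Ltv1, an assembly factor of the small subunit, fell by 0.59 (SE 0.12), Utp20 by 0.55 (SE 0.11) and Wdr43 by 0.52 (SE 0.08). Wdr43 read 10.46, 10.32, 10.46 and 10.34 on day 1 and 10.0006, 9.90, 9.85 and 9.75 on day 2. The list's median of gene means was 10.21 on day 1, 9.81 at 28 to 34 h, 9.87 on day 2 and 10.26 at 44 to 50 h. None of these 3 genes held.

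Lists of protein synthesis and respiration stand beside 6.81% of all genes that rose and 3.71% that fell. Of 24 cytosolic ribosomal proteins 1 rose, Rps19, by 0.34 ± 0.06, and 12 were higher in every pair, against 19.1% of all genes. Of 21 translation factors 2 rose, Eif4b by 0.65 ± 0.09 and the elongation factor Eef2 by 0.34 ± 0.06. Of 31 mitochondrial ribosomal proteins 2 fell. Mrps28 read 10.36, 10.25, 10.03 and 9.79 on day 1 and 9.29, 9.23, 8.84 and 9.03 on day 2, a fall of 1.01 (SE 0.10, adjusted p = 0.00146), and Mrps18b fell by 0.58. In oxidative phosphorylation 1 of 39 (2.6%) fell, Ndufa5 of complex I, by 0.33. Of 32 aminoacyl-tRNA synthetases 3 fell, among them the mitochondrial enzymes Ears2, by 0.66, and Iars2, by 0.42, and Farsb, by 0.53. Eif4b and Mrps28 held.

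Splicing genes had 1 rise and 3 falls of 28, where 6.81% of all genes rose and 3.71% fell. Hnrnpd fell by 0.41, Hnrnpu by 0.35 and Srsf3 by 0.30. Hnrnpa2b1 rose by 0.34 ± 0.06 on its brightest probe set, but its 3 other probe sets gave -0.57, -0.33 and -0.25, and 2 of these were called lower, so the gene has no settled direction. In the list of cold-inducible and splicing kinase genes 0 rose and 3 fell of 9, with Rbmx falling by 0.88 (SE 0.15) beside Cirbp and Srsf3. None of these genes held.

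Stress and growth signals gave scattered calls, beside 6.81% of all genes that rose and 3.71% that fell. Of 25 genes of the amino acid response 3 rose and 2 fell. Ddit4 (REDD1), an inhibitor of mTOR that glucocorticoids also induce, read 10.77, 10.87, 10.97 and 11.07 on day 1 and 11.62, 11.61, 11.60 and 11.72 on day 2, a rise of 0.72 ± 0.08 (adjusted p = 0.00179). Asns, asparagine synthetase, fell by 0.56. With Sesn2, Ddit4 made up the 2 risers of 16 genes that restrain mTOR, of which 0 fell. Among 13 glucocorticoid-responsive and metallothionein genes 2 rose and 2 fell. Sgk1, a kinase induced by serum and glucocorticoids, read 10.88, 11.18, 10.82 and 11.13 and then 10.28, 9.78, 9.04 and 9.72, a fall of 1.30 (SE 0.18, adjusted p = 0.00518). Mt2, a metallothionein, fell by 0.73 (SE 0.12), and Cavin2, of the coat of caveolae, rose by 1.57 ± 0.15. Ddit4, Sgk1 and Cavin2 held.

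Of 25 immediate early genes 3 rose and 0 fell, where 6.81% of all genes rose and 3.71% fell. The other lists of this paragraph stand beside the same shares. The immediate early genes that rose were Btg2, Fos and Egr1. Fos was at 10.85, 10.71, 10.85 and 10.77 on day 1 and 11.27, 11.28, 11.44 and 11.56 on day 2, a rise of 0.59 ± 0.08. Egr1 rose by 0.48 ± 0.12. Fos held and Egr1 was called in none of the fits without a pair. Of 19 targets of SRF, actin and YAP 3 rose and 0 fell, with Cnn2 (calponin 2) up by 1.02 ± 0.15, the receptor kinase Axl by 0.43 ± 0.09 and Tpm4, a tropomyosin, by 0.26 ± 0.06. Of 26 genes of basement membrane, matrix and integrins 4 rose and 1 fell. Lamb3, a laminin chain, rose by 0.57 ± 0.09 and the fibronectin receptor Itga5 by 0.50 ± 0.12, while Nid1 (nidogen) fell by 0.71. Tgfb1 was the 1 riser of 16 genes (6.2%) of TGF-beta and BMP signalling, at 0.55 ± 0.09. Cnn2 held.

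Among 32 genes of lysosome and autophagy 4 rose and 0 fell, against 6.81% and 3.71% of all genes, and 15 were higher in every pair, against 19.1%. Ctsh (cathepsin H) rose by 0.55 ± 0.08, as did Npc2, and Wipi1, an autophagy protein, by 0.37 ± 0.09, although 1 of its 5 other probe sets gave -0.14. Interferon-inducible genes had 1 rise and 1 fall of 17: H2-D1, a class I histocompatibility antigen, rose by 0.41 ± 0.07 and the guanylate-binding protein Gbp2 fell by 0.73 (SE 0.09). Of 19 NF-kappaB genes 1 rose, Cxcl16, by 0.29 ± 0.07. Of 19 heat shock proteins 1 rose and 1 fell, Hspa1a by 1.24 ± 0.24 and the mitochondrial Hspe1 by 0.36. Hspa1a and Hspa1b are near-identical copies whose probes may not tell them apart. Endoplasmic reticulum chaperones had 0 rises and 2 falls of 23, Dnajc3 by 0.47 and Pdia4 by 0.39, and polyamine genes 0 and 2 of 9, Srm by 0.54 and Azin1 by 0.34. Ctsh, Npc2 and Gbp2 held.

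Some lists had no call in either direction. These were 34 proteasome genes, led by Psme3 at -0.33 ± 0.11 (adjusted p = 0.121), 19 junction genes, led by the tight junction protein Ocln at -0.43 ± 0.13 (adjusted p = 0.0803), and 12 iron genes, led by Hmox1 at 0.67 ± 0.19 (adjusted p = 0.0749). The 9 Wnt genes were led by Lgr4 at -0.20 ± 0.06 (adjusted p = 0.091).

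**Figure D5:**
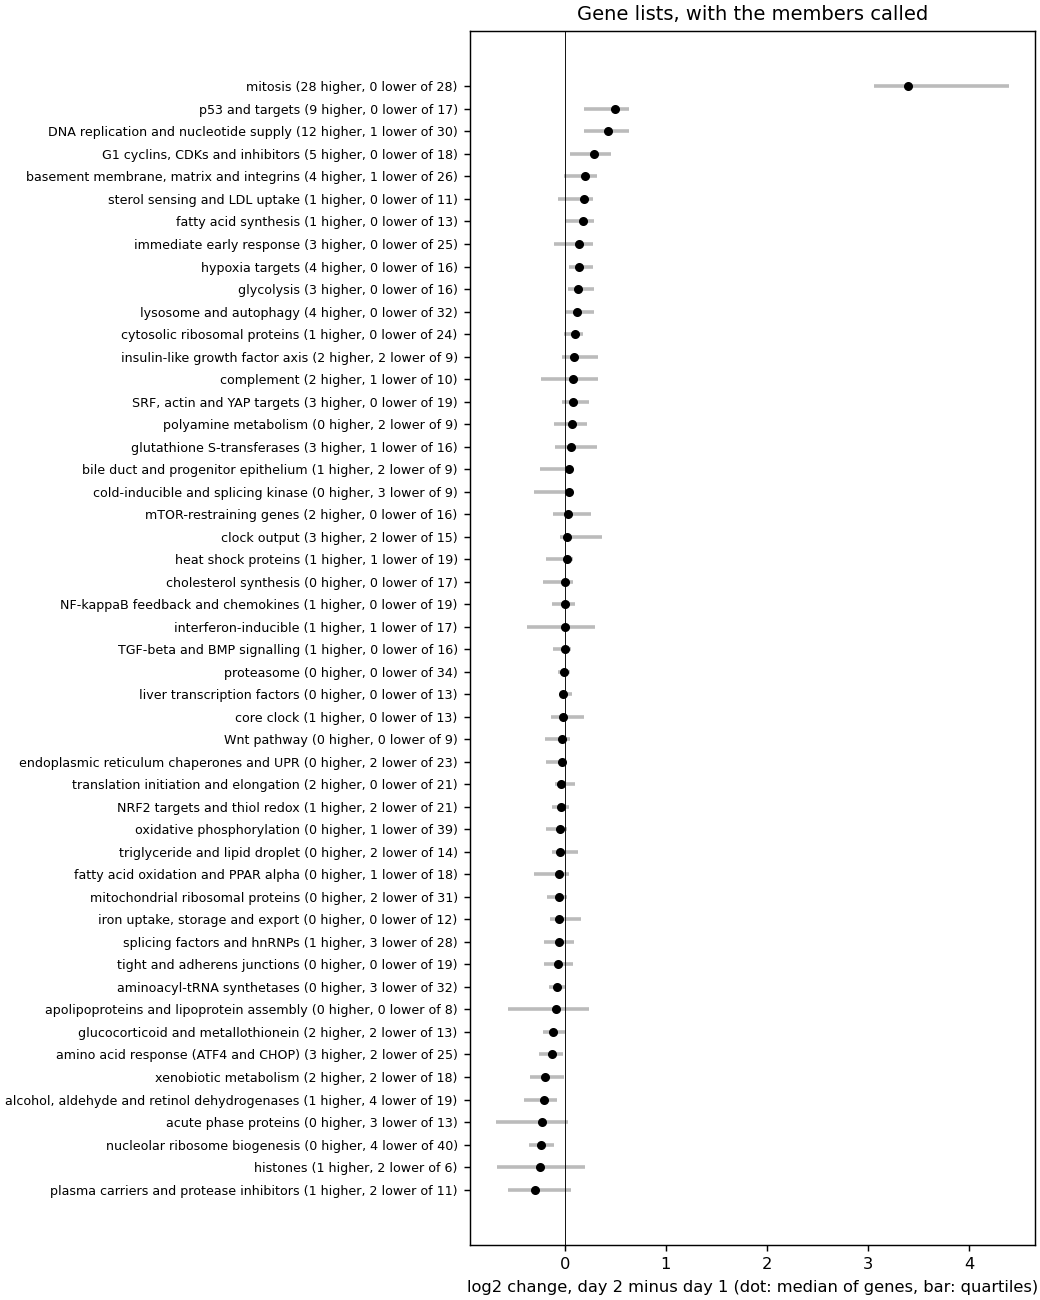
Change from day 1 to day 2 (x axis, log2) of the measured genes of each list (y axis), with a dot at the median and a bar over the middle quartiles, and the number of members called beside each name. The mitosis list, at 3.40, lies apart from every other list, whose medians are between -0.29 and 0.50. Of its 28 members 6 have a day 1 mean below 5. The 16 members at 5 or more on all 8 arrays have a median of 3.23.

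Whether the day difference changed with the clock hour was asked by a term for the product of day and hour. It was called for 0 of 18336 probe sets by limma, with a smallest adjusted p of 0.157, and 2391 probe sets (13%) had an unadjusted p under 0.05. After quantile normalization 49 probe sets were called. The genes of smallest p were Mki67, Rrm2, H2az1, Dck and Serpina1b. H2az1, a histone variant of dividing cells, read 12.89, 13.20, 13.13 and 13.36 on day 1 and 13.87, 13.77, 13.04 and 12.96 on day 2, and Dck, a nucleoside kinase, read 11.34, 11.67, 11.89 and 12.12 and then 12.47, 12.40, 12.05 and 11.90. In both genes day 1 was highest at 18 h and day 2 was highest at 36 h, so that the first 2 pairs were higher on day 2 and the last pair was lower. Serpina1b, an antitrypsin, ran in the opposite way, from 13.94, 13.41, 13.48 and 13.20 to 12.75, 12.66, 12.96 and 13.31. The differences of these last 3 genes over the 4 pairs were not called.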

How the data were processed

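Values are the authors' deposited log2 levels, 1 per probe set and array, from single-colour Affymetrix mouse arrays. Per the submitters' processing notes they come from GCRMA, a method that removes background estimated from probe sequence, brings the arrays to a common scale and combines the probes of a set. Its settings are not given in the sources used here, and the scale was read from the values themselves. The lowest value, 2.17, made up 41.1% of all values and is only an upper bound. Of 45101 probe sets, 34958 had 1 gene symbol in GEO's platform annotation, 932 had several and 9211 had none. Names come from those with 1 symbol, of which 34754 matched a RefSeq gene by Entrez ID.

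The day difference was fitted in limma 3.58.1 (R 4.3.3) with the clock hour as a block and an intensity trend in the variance prior, on 3 residual degrees of freedom. The pairing is the 24 h spacing, and same-hour deviations from the day means correlated at 0.06, -0.018, 0.091 and -0.15. An exact sign test over 4 pairs cannot go below 0.125, so single genes had only this fit. The test was checked on simulated data with 200 changed probe sets. It recovered 74% of changes of 1 log2 unit and 95% of changes of 2 units, with 9 false calls. The simulated noise was independent between probe sets and arrays, so it held no shift shared by a whole array. The 9 false calls therefore do not give the rate of false calls in these data. The number of arrays limits the precision. The members and the 50 gene lists were chosen with earlier results of these data known. The genes named were the 12 largest rises and falls among called genes with both means at 5 or above, the 4 largest each way among called genes dim on 1 day, all measured clock genes and outputs, the 3 called members of largest change of every other list (6 where most were called, and the smallest p where none was), and the 5 of smallest p by hour. Other genes are mentioned to complete a count, as markers, or after their values were seen. Alternatives were the filter, the normalization, the variance prior, the block, the windows of all 24 arrays and leaving out pairs.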

Additional observations from a re-analysis of the deposited data

Results flagged for a closer look

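Each group of 4 values was searched for 1 far from the other 3 by Dixon's test, in 167 groups, of which 6 stood out. Chance gives about 1 in 20. The array at 18 h had 39.59% of its probe sets at the lowest value of the table, against 41.07% to 41.29% on the other arrays of day 1. On day 2 the array at 40 h had a lower share, 39.34%, and was not flagged among the arrays of its day. Of the differences over the 4 pairs, Per2 was 1.5976 for 38 h minus 14 h, far above its other pairs, which follows from the low 14 h value. For 42 h minus 18 h, Ero1a was 0.1171 and Mrps18b -0.0952, both nearer 0 than in the other pairs, and Utp20 was -0.6888, farther from 0. For 40 h minus 16 h, Proc was 0.4146, below its other pairs. The causes were not tested.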

How the results depend on the processing

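The fit without the clock hour as a replicate block gave 1324 probe sets higher and 1050 lower, against 1058 and 785, and changed the call of 7 of the 130 called genes named. With the hour as a linear term 1303 probe sets and 643 genes were lower. With no filter on low values 0 probe sets and 0 genes were called in either direction, with unadjusted p under 0.05 for 2464 higher and 2465 lower, and each list count below was 0; 45037 probe sets were then tested, and the cause was not tested. All 24 arrays in 6 windows gave 2254 probe sets higher and 2329 lower, or 1384 and 1190 genes. Leaving out 1 pair gave 450 to 1123 probe sets higher and 188 to 1262 lower, 291 to 705 genes higher and 85 to 653 lower, 5 to 8 p53 genes and 4 to 12 replication genes. Alternatives chosen after seeing the data left out the pair of 40 h with quantile normalization (669 and 411 probe sets, 430 and 188 genes) and the first 2 pairs (407 and 339 probe sets, 253 and 147 genes, 4 p53 and 3 replication genes). Of 28 mitotic genes, 28 were called in each of these fits except the one with no filter and, at 16, the one that tested only probe sets at 5 or more on all 8 arrays. Quantile normalization kept the call and direction of all 130 named genes and gave 49 probe sets by hour against 0.

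Among called genes only other probe sets turned the sign, for Igfbp7 (-0.11), Wipi1 (-0.14) and Hnrnpa2b1 (-0.57, -0.33 and -0.25). Among genes that were not called, other probe sets gave -0.12 and -0.20 for Rora, 0.20, 0.058 and 0.28 for Csnk1d and -0.048 for Csnk1e, and quantile normalization gave -0.0093 for Leo1. Over the fits that leave out 1 pair, the sign turned for Per1 (-0.13 to 0.13), Per2 (-0.27 to 0.42), Cry1 (-0.56 to 0.028), Cry2 (-0.050 to 0.18), Nfil3 (-0.24 to 0.19), Tspan4 (-0.12 to 0.14), Tsc22d3 (-0.060 to 0.10), Pnpla2 (-0.13 to 0.0075) and Leo1 (-0.036 to 0.074). Leaving out the first 2 pairs gave 0.048 for Arntl, -0.34 for Per2, 0.28 for Cry1, -0.21 for Cry2, 0.020 for Nfil3, -0.045 for Tsc22d3, -0.069 for Leo1, -0.24 for H2az1 and -0.032 for Dck, and the quantile fit without the pair of 40 h gave 0.066 for Nfil3. The lowest value of the table bounds the dim genes, so no size is given for their changes.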
